A study of Sus scrofa domesticus with 150 samples.

Results

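The comparison concerned the biopsies taken from the edge and from the center of excision wounds of pig skin on days 15 and 16, which are 12 of the 150 samples of the series. The members were all samples labelled with these days, 6 from the edge and 6 from the center, and each edge sample was paired with the center sample of the same wound. All animals were female domestic pigs of a Yorkshire mix, and each carried several circular full-thickness excisions on its back, which were dressed with Telfa Clear and Tegaderm. Apart from antibiotic ointment on biopsied spots, no treatment was applied in any group. Day 15 holds 1 wound each of animals 1, 2 and 3 and day 16 holds 1 wound each of animals 4, 5 and 6, so day and animal cannot be told apart. A wound was biopsied at both locations and then left the experiment. Day 0 is the skin excised to make the wounds, with 1 sample from each of the 6 animals, and serves here as the unwounded level.

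A full-thickness wound heals from its rim. Fibroblasts, vessels and immune cells fill the defect with granulation tissue, and keratinocytes crawl over it from the margin and from cut hair follicles. Behind the moving front the new epidermis stratifies: cells leave the basal layer, exchange the basal keratins for KRT1 and KRT10, and end as a cornified barrier sealed with lipids. Underneath, proteases rework the provisional matrix, inflammation subsides and the collagen is crosslinked into a scar.

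Total counts per sample ranged from 14191248 to 20338972, and medians were 16107372 for edges and 17593712 for centers. A floor of 3 counts corresponds to 0.148 to 0.211 CPM, the count of a gene scaled by the total count of its library, and this floor covers counting error only. Levels below are CPM, which do not correct for gene length and are compared between samples of a gene and not between genes. In biopsies, fewer cells of a type and less RNA per cell cannot be told apart. The wounds of animals 3 and 5 drew attention. The edge of animal 3 held skeletal muscle RNA, with the muscle actin ACTA1 at 1060 CPM against 0 to 1.45 CPM in the other edges. The center of animal 5 held nearly no keratinocyte RNA, with the basal keratin KRT5 at 11.7 CPM. It was the lowest of a graded set and was not flagged for KRT5 in the outlier search below. The mean log2(CPM + 1) of basal genes was 3.96 there, and the centers of animals 3 and 6 were low too, at 6.55 and 7.68. Counts of genes were also taken without the wounds of animals 3 and 5, an alternative chosen after the data were seen. List counts that moved by more than 1.5 times are given below.

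The edge and the center differed in a large part of the transcriptome. Among 15701 genes tested with the paired quasi-likelihood test of edgeR, 6977 (44.4%) had a Benjamini-Hochberg adjusted p under 0.05. Of these, 3532 were higher at the edge (22.5% of those tested) and 3445 were lower (21.9%), and the median log2 fold change, edge over center, was 0.016. Counts of list members given below are to be read beside these shares. The direction was the same in all 6 wounds for 5612 of the genes called, and 2575 genes (16.4% of those tested) had 6 edge values that did not overlap the 6 center values. Without the wounds of animals 3 and 5 the number called was 4130. The paired model was also run for each day alone, with 2094 genes called on day 15 and 2177 on day 16, and 1003 genes were called on both.

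**Figure D1:**
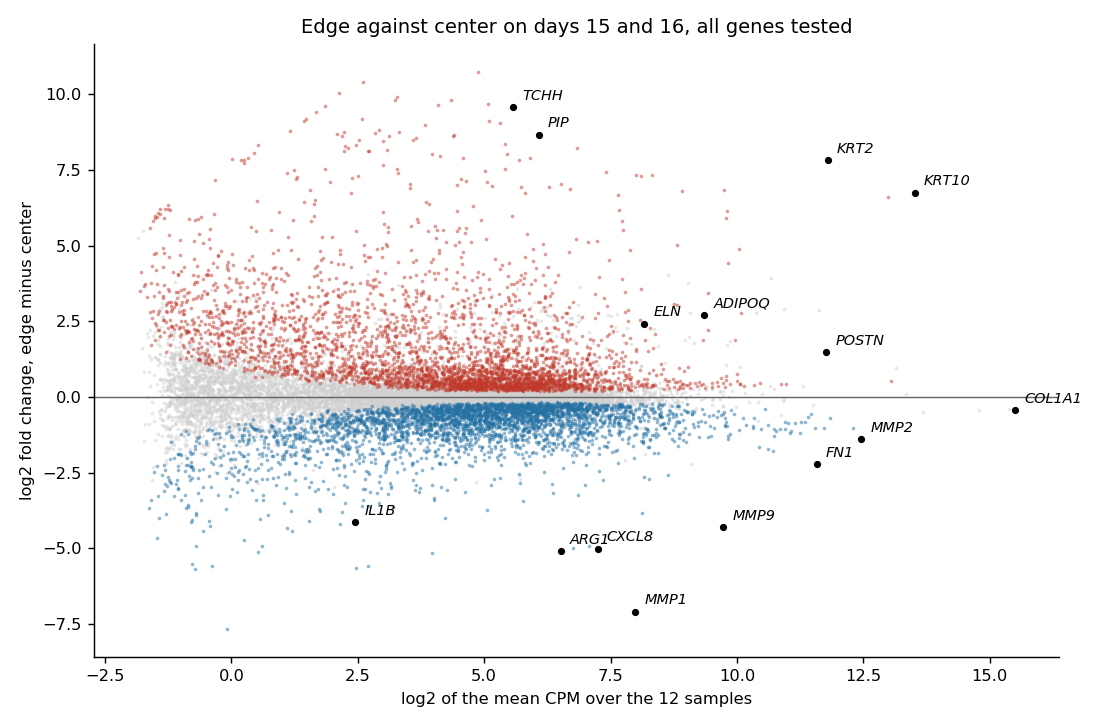
Each point is a gene tested, with the log2 of its mean CPM over the 12 samples on the x axis and its log2 fold change, edge minus center, on the y axis. Red points were called higher at the edge (3532 genes), blue points lower (3445 genes) and grey points were not called; TCHH, KRT2 and KRT10 lie far above 0, MMP1 lies far below, and COL1A1, with the largest share of counts, lies near 0.

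The differentiated epidermis was the first large difference. KRT10 (ENSSSCG00025042112), the keratin that keratinocytes turn on when they leave the basal layer, was at 24700, 12700 and 24000 CPM at the edges of day 15 and at 24900, 29700 and 19700 CPM at the edges of day 16. The centers of the same wounds held 1440, 1050 and 50.2 CPM on day 15 and 479, 34.7 and 67.4 CPM on day 16. Every edge lay above every center, and the centers of animals 3, 5 and 6 were the lowest. Day 0 skin ran from 8890 to 27600 CPM, which covered all edges except that of animal 5. Within wounds, KRT10 differed by 6.69 ± 2.58 on the log2(CPM + 1) scale (SD, n = 6 wounds), in the same direction in 6 of 6 wounds, with a two-sided exact sign-flip permutation p of 0.0312, the smallest that 6 wounds allow. The edgeR fold was 108, with an adjusted p of 0.0038.

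The other markers of these layers followed. KRT2, a keratin of the upper spinous and granular layers, ranged from 3020 to 12100 CPM at the edge, with a median of 7070, and from 13.6 to 55.0 CPM in the center, with a median of 27.5. The groups did not overlap, and the fold of 226 had an edgeR adjusted p of 0.000446. KRT77, a suprabasal keratin that pig skin expressed at 700 to 1780 CPM on day 0, ranged from 17.2 to 687 CPM at the edge and from 0.112 to 1.15 CPM in the center. This was the largest difference of the list, a fold of 299 with an edgeR adjusted p of 0.000158, although the edges of animals 1, 4 and 5 stayed under 55 CPM and every edge was below the lowest day 0 sample. KRT1, the partner of KRT10, and FLG2, a filaggrin-like protein of the cornified layer, were higher by log2 fold changes of 6.60 and 6.83, with edgeR adjusted p of 0.00313 and 0.00362. Another gene in the table carries the symbol FLG2, so that reads may be split between them.

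In all, 12 of 19 tested genes of suprabasal and cornified epidermis were higher at the edge and 0 were lower, with a median log2 fold change of 4.05. Without the wound of animal 3 the number higher was 8. The 7 genes that were not called had log2 fold changes of 0.46 to 4.05, and the smallest was that of TGM3, a transglutaminase, which ranged from 134 to 285 CPM at the edge and from 84.1 to 356 CPM in the center (edgeR adjusted p = 0.238).

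Basal keratinocytes gave another picture. KRT5 (basal keratin) was at 4530, 4710 and 4390 CPM at the edges of day 15 and at 9480, 8830 and 6290 CPM at the edges of day 16. The centers were at 5030, 3640 and 275 CPM on day 15 and at 7130, 11.7 and 1190 CPM on day 16. In animals 1, 2 and 4 the center was near its edge, and in animals 3, 5 and 6 it was far below. The difference over all wounds was not called, with a log2 fold change of 2.05 and an edgeR adjusted p of 0.213. TP63, the transcription factor of epidermal progenitors, and COL17A1, a hemidesmosomal collagen, followed the same split and were not called either, with edgeR adjusted p of 0.112 and 0.162.

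Of 13 basal genes tested, 1 was higher at the edge and 1 lower, and the median log2 fold change was 0.32. These were DST, a linker of hemidesmosomes, at 0.32 and COL7A1, the collagen of anchoring fibrils, at a log2 fold change of -0.65. COL7A1 lost its call without animal 1, 2, 3 or 6 (edgeR adjusted p up to 0.0606) and DST without the same animals (up to 0.0918). Without the wounds of animals 3 and 5, in which center keratinocyte RNA was scarce, 5 basal genes were lower at the edge and 0 were higher. Among them was LAMB3, a laminin chain of the epidermal basement membrane that migrating keratinocytes lay down, with a log2 fold change of -1.25, together with ITGA3, CDH3 and COL7A1. With all 6 wounds LAMB3 was not called (log2 fold change -0.42, edgeR adjusted p = 0.714). Its center values ran from 2.13 CPM in animal 5 to 428 CPM in animal 4. Leaving out the wounds whose centers had the lowest basal levels by itself moves basal genes toward lower at the edge. The counts without animals 3 and 5 are therefore a description and no test. The center of animal 6, whose basal list mean of 7.68 on the log2(CPM + 1) scale was the next lowest, was kept.

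The mean log2(CPM + 1) of the list shows the same contrast by sample. For suprabasal and cornified epidermis the 6 edges ranged from 9.00 to 9.88, close to day 0 skin, 8.98 to 9.76, while the centers ranged from 2.07 to 7.27. For the basal list the edges ranged from 7.85 to 8.97, and the centers of animals 1, 2 and 4 were at 8.63, 8.48 and 9.30, those of animals 3, 5 and 6 at 6.55, 3.96 and 7.68. In counts, KRT10 per KRT5 was 2.63 to 5.48 at the edge, 1.49 to 2.7 in day 0 skin and 0.0568 to 0.287 in 5 centers. The exception was the center of animal 5, at 2.97, where KRT5 itself was at 11.7 CPM. This ratio was chosen after the values of both genes were seen.

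**Figure D2:**
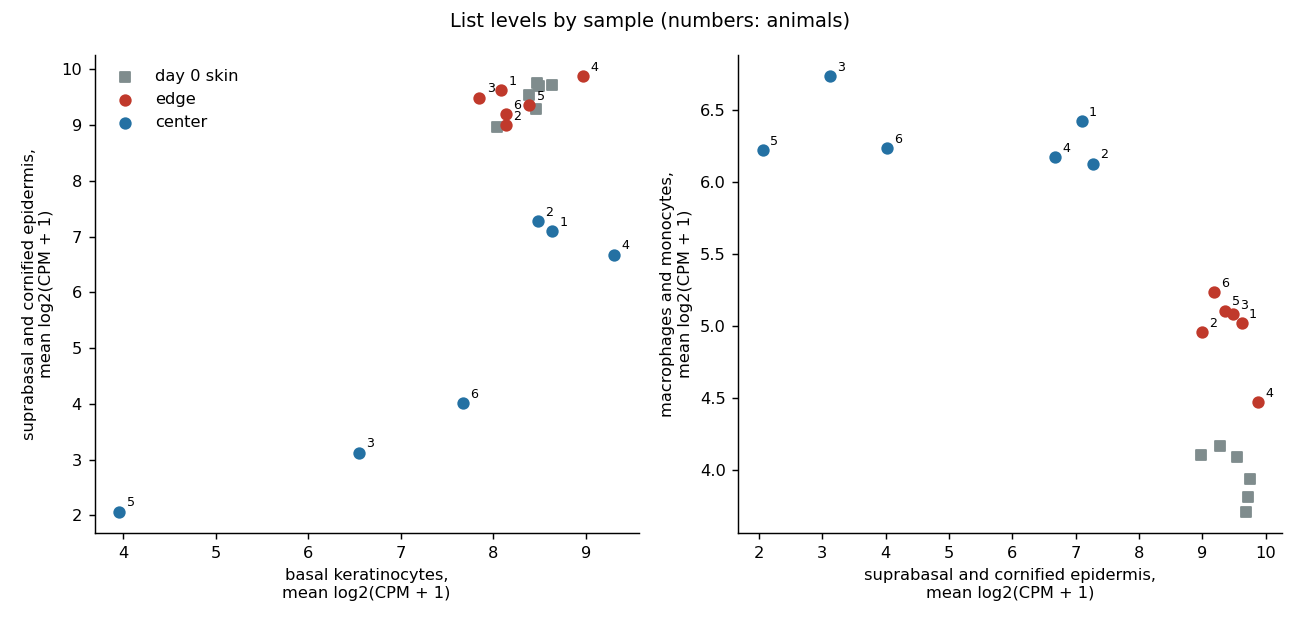
Each point is a sample, placed by the mean log2(CPM + 1) of a gene list on each axis, with edges in red, centers in blue, day 0 skin in grey and the animal's number beside it. On the left, edges lie with day 0 skin, and centers range from 9.30 (animal 4) to 3.96 (animal 5) in the basal list while staying at or below 7.27 in the suprabasal list; on the right, every center lies above every edge in the macrophage list.

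Keratins of activated epidermis did not separate the locations. KRT6C, a keratin of wounded and follicular keratinocytes chosen after its values were seen, was at 593 to 2530 CPM at the edges of day 15 and at 6400 to 39200 CPM at those of day 16. Its centers spanned 19.5 to 24200 CPM, and the log2 fold change was 0.08 with an edgeR adjusted p of 0.973. S100A9, an alarmin of both activated keratinocytes and neutrophils, was lower at the edge in 5 of 6 wounds without being called (log2 fold change -2.21, edgeR adjusted p = 0.142). Without animal 5, the wound in which it was higher at the edge, it was called, with a log2 fold change of -2.92 (edgeR adjusted p = 0.0212). Of 10 tested genes of this list, for which 64.7% of the symbols were found, 2 were higher and 0 lower, the cytokine IL36G and the transglutaminase TGM1, with a median log2 fold change of -0.02. Without animal 3 neither was called, and IL36G lost its call without animal 4, 5 or 6 as well (edgeR adjusted p up to 0.0945). Without both animals 3 and 5 the numbers were 1 higher and 2 lower.

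Enzymes that make the lipid barrier of the cornified layer were higher at the edge. ALOXE3, a lipoxygenase that acts on the linoleate of barrier ceramides, had a median of 69.1 CPM at the edge, with a range of 41.6 to 111, and of 5.07 CPM in the center, with a range of 0.168 to 18.4. The groups did not overlap, and the fold was 18.7 (edgeR adjusted p = 0.00537). ALOX12B, which acts before it, was higher by a log2 fold change of 3.85 (adjusted p = 0.0119). The list had 15 of 19 genes higher, 1 lower and a median log2 fold change of 2.95. Of 22 tested genes of cholesterol synthesis, 9 were higher and 0 lower. These were 40.9% called, against 44.4% of all genes tested, of which 22.5% were higher and 21.9% lower. MSMO1, a sterol oxidase of the pathway, was higher by a log2 fold change of 1.29 (edgeR adjusted p = 0.004). With animal 3, 4, 5 or 6 left out, and also without both animals 3 and 5, 4 were higher.

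Hair follicle genes had the largest median of the 32 lists, with levels that varied widely between wounds. TCHH (ENSSSCG00025060843), trichohyalin of the inner root sheath, was at 174, 428 and 0.211 CPM at the edges of day 15 and at 4.93, 12 and 3.36 CPM at the edges of day 16. No center exceeded 0.318 CPM, and 3 of 6 centers held no count. The edges of animals 1 and 2 stood far above the rest, and the edge of animal 3 fell among the centers, so the groups overlapped. The fold of 759 (edgeR adjusted p = 4.15e-05) covers edges between 0.211 and 428 CPM, and the difference within wounds was 4.01 ± 3.11 on the log2(CPM + 1) scale (SD, n = 6). KRT71, an inner root sheath keratin, and KRT85, a hair shaft keratin, were split alike, with highest values of 2490 and 537 CPM in the edge of animal 2 and 0.493 and 0.211 CPM in the edge of animal 3.

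Of 20 follicle genes tested, 18 were higher at the edge and 0 lower, with a median log2 fold change of 6.84. The mean level of the list was 5.44 and 6.66 in the edges of animals 1 and 2, 1.04 to 3.02 in the other edges and 0.37 to 1.10 in the centers. In day 0 skin it ranged from 2.27 to 7.90, where each sample is the whole piece of excised skin and not a small biopsy.

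Gland genes were higher at the edge too. KRT79, a keratin of the sebaceous duct and follicle opening, ranged from 2.57 to 66.3 CPM at the edge and from 0 to 0.635 CPM in the center, a fold of 120 without overlap (edgeR adjusted p = 0.000419). PIP, a secreted protein of sweat and other exocrine glands, was at 816 CPM in the edge of animal 2, at 1.51 to 61.6 CPM in the other edges and at no more than 1.91 CPM in the centers (log2 fold change 8.67, edgeR adjusted p = 4.42e-05). The list of sebaceous and sweat gland genes, for which 77.8% of the symbols were found in the table, had 7 of 12 higher, 2 lower and a median log2 fold change of 3.35. The lower pair was the desaturase FADS2 and SOAT1, which esterifies cholesterol, at log2 fold changes of -0.99 and -1.60 (edgeR adjusted p = 0.00285 and 0.000427). SOAT1 was at 9.69 to 20.1 CPM at the edge and 33.5 to 49.5 CPM in the center.

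**Figure D3:**
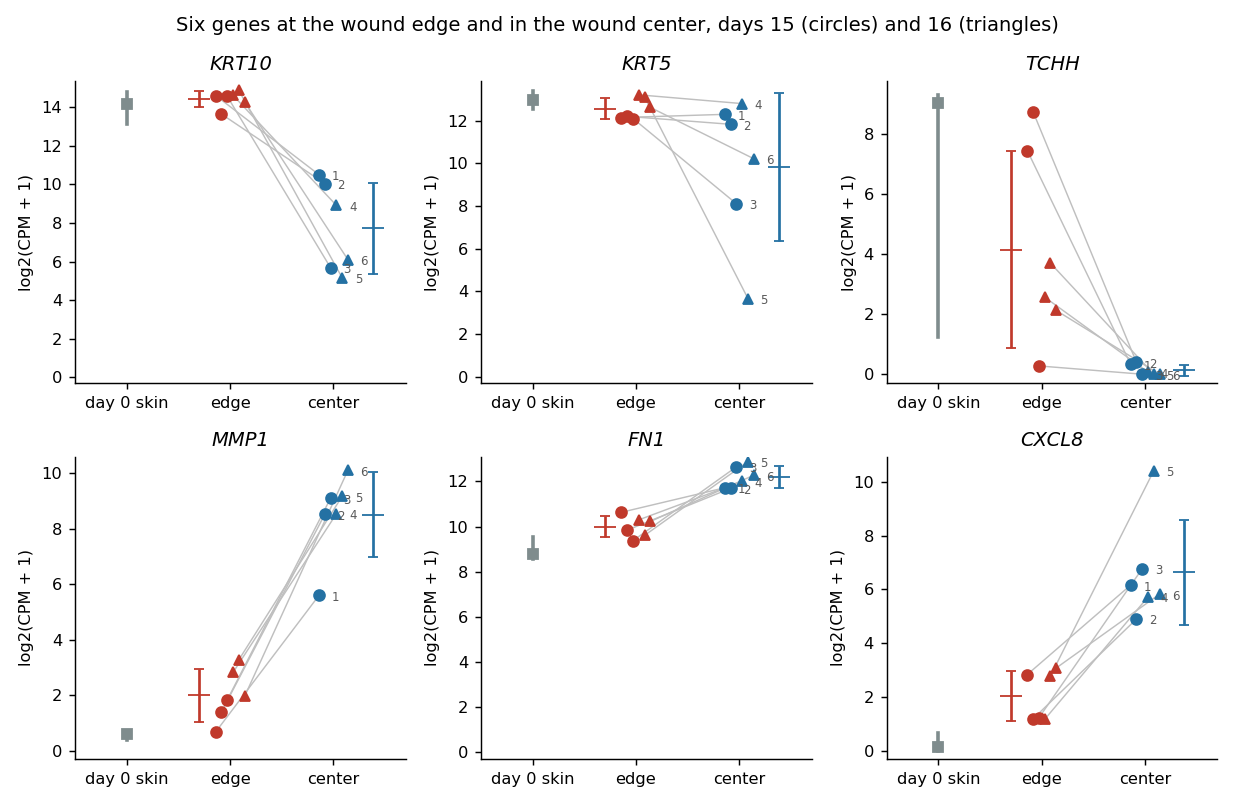
The y axis of each panel is log2(CPM + 1); grey squares and bars give the median and range of 6 day 0 samples, red points are edges, blue points are centers, circles are day 15, triangles are day 16, lines join the samples of a wound, numbers are animals, and the bars beside the points are the mean and SD of 6. KRT10 separates the locations in all 6 wounds, KRT5 in some, TCHH mainly in animals 1 and 2, while MMP1, FN1 and CXCL8 are higher in every center.

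Of the melanocyte genes, PMEL, TYR, TYRP1, OCA2 and TRPM1 did not pass the filter on low counts. Of 7 tested, 1 was higher and 3 were lower. MLANA, a melanosome protein, was at 0.979 to 9.76 CPM in the centers, at 0 to 0.61 CPM at the edges and at 0 in all 6 samples of day 0 skin (log2 fold change -4.32, edgeR adjusted p = 0.00286). KIT and EDNRB, the other lower genes, and SOX10, the higher gene, are receptors and a transcription factor also used by mast cells, vessels and Schwann cells. SOX10 was not called without animal 3, nor without both animals 3 and 5.

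Beneath the epidermis, genes of granulation tissue matrix were lower at the edge. FN1 (ENSSSCG00025023944), fibronectin of the provisional matrix, ranged from 665 to 1590 CPM at the edge, with a median of 1060, and from 3320 to 7550 CPM in the center, with a median of 4540. The groups did not overlap, and FN1 differed by -2.21 ± 0.885 within wounds on the log2(CPM + 1) scale (SD, n = 6), a fold of 4.68 in the edgeR fit (adjusted p = 0.00286). In day 0 skin FN1 ran from 379 to 744 CPM, below every edge except that of animal 3. TNC, tenascin C of remodelling matrix, had medians of 766 CPM (edge) and 2030 CPM (center), against 44.3 CPM in day 0 skin, with a log2 fold change of -1.78 (edgeR adjusted p = 0.00269).

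The fibrillar collagens that take the largest shares of all reads did not pass the edgeR test. COL1A1 held 3.97 ± 0.761% of counts at the edge and 5.22 ± 0.736% in the center (SD, n = 6), with a log2 fold change of -0.43 and an edgeR adjusted p of 0.237. COL3A1 and COL1A2 had edgeR adjusted p of 0.258 and 0.179. DESeq2 called COL1A1 and COL1A2 lower at the edge (adjusted p = 0.0435 and 0.0269) but not COL3A1 (adjusted p = 0.0604). POSTN, periostin, went the other way. It was at 4230 to 6630 CPM at the edge and at 1210 to 2370 CPM in the center, without overlap, a fold of 2.81 (edgeR adjusted p = 0.00139). In the whole list of dermal and granulation tissue matrix, 15 of 24 genes were lower, POSTN was the 1 gene higher, and the median log2 fold change was -0.76. Without the wounds of animals 3 and 5 the number lower was 6, and no wound alone brought it under 11.

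Enzymes that modify and crosslink collagen were lower at the edge as well, 13 of 18 against 1 higher, with a median log2 fold change of -0.93. PLOD2, a lysyl hydroxylase that sets the crosslinks typical of scar, had 26.2 to 67.0 CPM at the edge and 103 to 247 CPM in the center, without overlap (log2 fold change -1.76, edgeR adjusted p = 0.00236). LOXL2, a lysyl oxidase-like enzyme, was lower by a log2 fold change of -1.41 (adjusted p = 0.00125). The gene higher at the edge was LOXL4, at 1.08, which was not called without animal 3, nor without both animals 3 and 5.

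Elastic fiber and mature dermis genes split into 9 higher and 6 lower of 20, with a median log2 fold change of 0.34. Without the wounds of animals 3 and 5 the number lower was 3. ELN, elastin, ranged from 300 to 935 CPM at the edge, close to the 337 to 755 CPM of day 0 skin, and from 64.7 to 117 CPM in the center. Every edge lay above every center, with a fold of 5.37 (edgeR adjusted p = 0.000661). FBLN1, a fibulin of elastic fibers, was higher by a fold of 10.1, with a median of 106 CPM at the edge and 11.7 CPM in the center (adjusted p = 0.000913). TNXB, a tenascin of intact dermis, had medians of 17.2 and 3.72 CPM (fold 6.13, adjusted p = 0.000895). Among the lower genes was EMILIN1, an elastic fiber glycoprotein named after its value was seen, at a log2 fold change of -1.61.

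Matrix metalloproteinases, which cut collagen and other matrix proteins, were lower at the edge. MMP1 (ENSSSCG00025039149), the interstitial collagenase, was at 0.593, 1.63 and 2.54 CPM at the edges of day 15 and at 6.04, 8.65 and 2.87 CPM at those of day 16. The centers were at 47.3, 365 and 547 CPM on day 15 and at 369, 573 and 1100 CPM on day 16. No edge reached the lowest center, that of animal 1, and the fold was 137 (edgeR adjusted p = 0.000303). In day 0 skin MMP1 did not exceed 0.628 CPM.

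MMP13, another collagenase, MMP9, a gelatinase of neutrophils, macrophages and keratinocytes, and MMP12, the macrophage elastase, were lower at the edge by log2 fold changes of -4.99, -4.30 and -3.74, with edgeR adjusted p of 0.0019, 0.000344 and 0.000225. MMP9 ranged from 29.5 to 138 CPM at the edge and from 1130 to 2740 CPM in the center. MMP2 and MMP14, the fibroblast gelatinase and its membrane activator, differed less, by log2 fold changes of -1.40 and -1.19 (adjusted p = 0.00666 and 0.00811). TIMP1, an inhibitor induced in wounds, was lower too, with 52.5 to 80.0 CPM at the edge and 115 to 360 CPM in the center (log2 fold change -1.69, adjusted p = 0.00393). Of 21 tested proteases and inhibitors, 15 were lower and 3 higher, with a median log2 fold change of -1.19. The higher genes were MMP7, an epithelial and glandular protease, and the inhibitors TIMP3 and TIMP4, at log2 fold changes of 3.88, 1.02 and 0.96. MMP7 reached 12.2 CPM at the edge and 7.42 CPM in the center of animal 4, and TIMP4 lost its call without animal 1, 2, 3 or 6. Another gene carries the symbol TIMP3.

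Among signals that act on fibroblasts, more genes were lower at the edge than higher. TGFB1, the main profibrotic ligand, had a median of 83.6 CPM at the edge and 181 CPM in the center, without overlap (log2 fold change -1.19, edgeR adjusted p = 0.000836). INHBA, the activin A subunit, was lower by a log2 fold change of -2.19, and FST, which binds and blocks activin, was higher by 1.5 (adjusted p = 0.00524 and 0.0088). Both were picked with their values known. Of 23 tested genes of the TGF-beta and activin pathway, 11 were lower and 3 higher, LTBP3, FST and BMP2, with a median log2 fold change of -0.57.

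WNT ligands and antagonists moved in both directions, 10 higher and 7 lower of 25 tested, with a median log2 fold change of 0.60. Without animal 3 the number higher was 6. Among the lower genes was WNT5A, a noncanonical ligand of mesenchyme, with 27.5 to 49.7 CPM at the edge and 56.5 to 319 CPM in the center (log2 fold change -1.91, edgeR adjusted p = 0.0119). The antagonist SFRP2 and the agonist RSPO1 were lower as well, by -2.02 and -2.84 (adjusted p = 0.00286 and 0.00267). WNT16 and WNT3, ligands made in epidermis, were higher by 3.56 and 3.16 (adjusted p = 0.0122 and 0.00969) and were picked with their values known. The WNT16 centers of animals 3 and 6 were at 0.0577 and 0.47 CPM, and their KRT5 was low too. Within wounds, WNT16 was higher at the edge by 5.44, 3.49 and 4.78 in animals 3, 5 and 6 (log2(CPM + 1) scale). In animals 1, 2 and 4, whose center KRT5 was near that of the edge, WNT16 was higher by 1.55, 2.84 and 1.51. The part of the scarce center keratinocyte RNA in these differences was not tested.

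Vessel genes were lower at the edge. KDR, the main VEGF receptor of endothelium, was at 58.9 to 84.1 CPM at the edge and at 99.2 to 212 CPM in the center, without overlap, and at 22.9 to 39.1 CPM in day 0 skin (log2 fold change -1.17, edgeR adjusted p = 0.000863). CDH5, the endothelial cadherin, gave the same order, with medians of 105 and 220 CPM (log2 fold change -0.96, adjusted p = 0.00342). Of 19 endothelial genes tested, 15 were lower and 0 higher, with a median log2 fold change of -0.87. VWF, the von Willebrand factor, pointed the other way without being called (log2 fold change 1.14, edgeR adjusted p = 0.097). DESeq2 called 1 gene of the list higher. The lymphatic list had 3 of 8 lower and 1 higher, 50% called against 44.4% of all genes tested. PROX1, its defining transcription factor, was not called (log2 fold change 0.24), while PDPN, which fibroblasts and macrophages of wounds also express, was lower by -1.52 together with LYVE1 and FLT4. FLT4 lost its call without animal 2, 4, 5 or 6. TBX1, the higher gene, was not called without animal 1, 3 or 5, nor without both animals 3 and 5.

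Of 18 genes of contractile and perivascular cells, 10 were lower and 1 higher, with a median log2 fold change of -0.84. PDGFRB, a receptor of pericytes and activated fibroblasts, had 282 to 407 CPM at the edge and 499 to 937 CPM in the center, without overlap (log2 fold change -1.22, edgeR adjusted p = 0.0011). ACTA2, smooth muscle actin of myofibroblasts and vessel walls, was lower in 5 of 6 wounds (log2 fold change -0.79, adjusted p = 0.0267). That call was lost without animal 3, 4, 5 or 6 (adjusted p up to 0.0728). The edge of animal 2 was the exception, with 629 CPM against 416 CPM in its center. ACTG2, the higher gene, is an actin of smooth muscle, lost its call without animal 1, 3, 4 or 5 and was at 643 CPM in the same edge. Without the wounds of animals 3 and 5 the numbers were 6 lower and 0 higher.

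**Figure D4:**
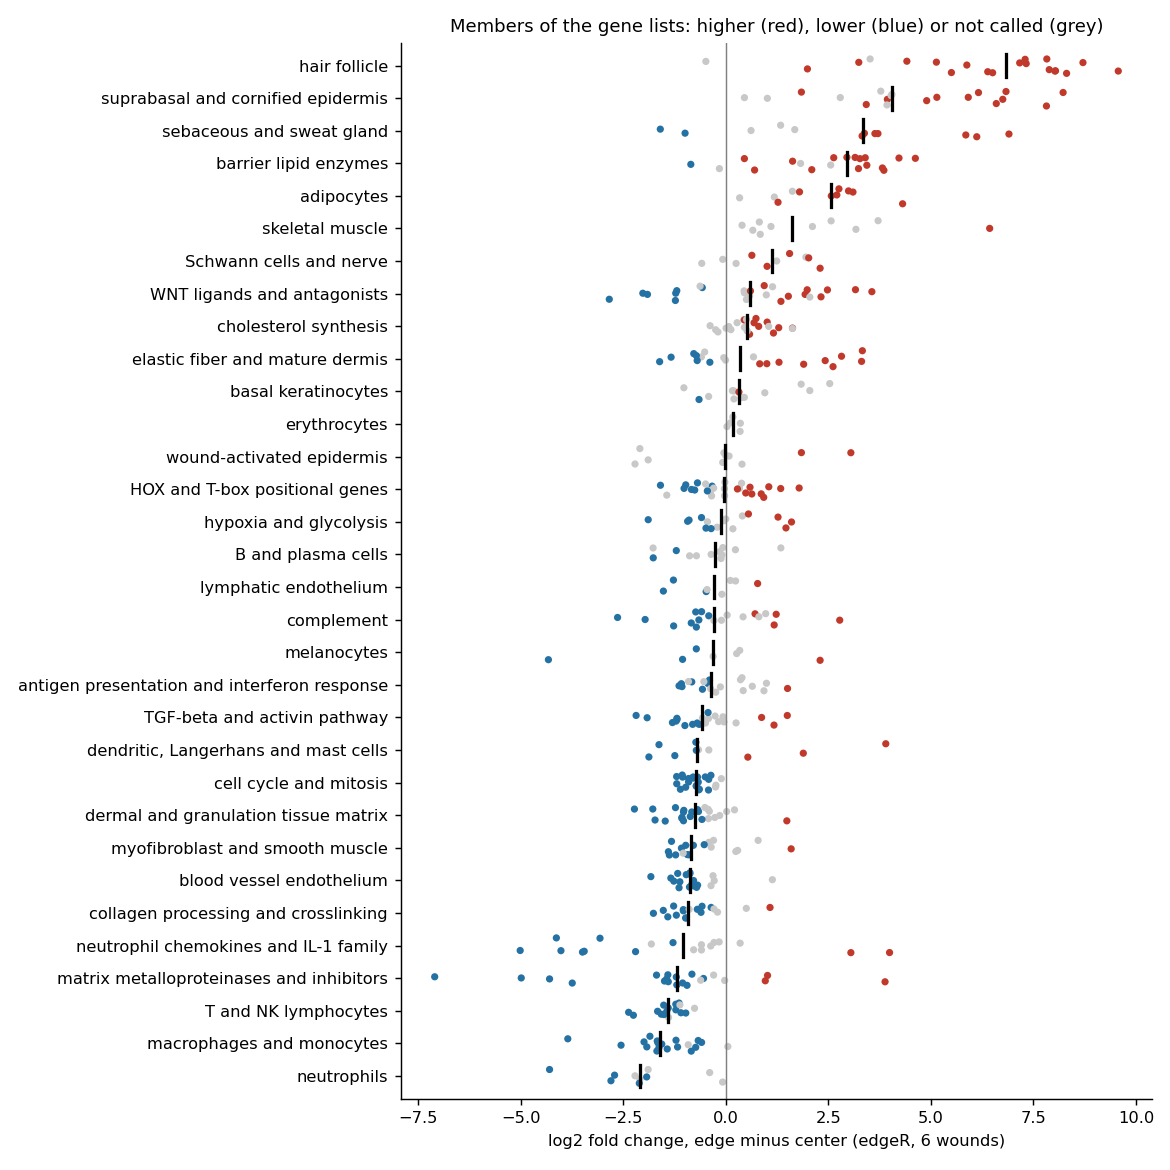
Each point is a tested member of a gene list, with its log2 fold change, edge minus center, on the x axis; red points were called higher at the edge, blue points lower, grey points were not called, and black bars are list medians. Hair follicle (median 6.84) and suprabasal epidermis (4.05) stand at one end, and macrophages (-1.59) and neutrophils (-2.10) at the other, with the red and blue points mixed in the WNT, elastic fiber and positional gene lists.

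Macrophage genes were lower at the edge. CD68, a lysosomal protein of macrophages, was at 19.0 to 29.5 CPM at the edge, 60.5 to 99.0 CPM in the center and 8.96 to 17.9 CPM in day 0 skin, with no overlap of edge and center (log2 fold change -1.68, edgeR adjusted p = 0.000597). Another gene in the table carries the same symbol. CSF1R, the growth factor receptor of macrophages, and SPI1, their lineage factor, were lower by -1.18 and -1.62 (adjusted p = 0.000452 and 0.000158). SPP1, osteopontin, made by macrophages of wounds, differed more, with 10.9 to 63.1 CPM at the edge and 153 to 1070 CPM in the center (log2 fold change -3.85, adjusted p = 0.00452). Of 20 macrophage and monocyte genes tested, 18 were lower and 0 higher, with a median log2 fold change of -1.59, and 17 to 19 were lower when each wound was left out in turn. APOE and FCGR1A were the genes not called. In the mean level of the list the centers ranged from 6.13 to 6.73 and the edges from 4.47 to 5.24, both above the 3.72 to 4.17 of day 0 skin.

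Neutrophil genes had 5 of 10 lower and 0 higher, 50% called against 44.4% of all genes tested, with a median log2 fold change of -2.10. Without animal 5, whose center nearly lacked RNA of keratinocytes, 8 were lower, among them S100A8, S100A9 and S100A12, which activated keratinocytes make as well. CSF3R, the G-CSF receptor of neutrophils, was at 5.62 to 11.6 CPM at the edge and at 21.7 to 141 CPM in the center, without overlap (log2 fold change -2.71, edgeR adjusted p = 0.000427). CXCR2, the receptor for CXCL8, was not called, with 3 wounds higher and 3 lower, and shares its symbol with another gene.

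The chemokines that draw neutrophils separated the locations further. CXCL8 (ENSSSCG00025017428) was at 6.14, 1.28 and 1.34 CPM at the edges of day 15 and at 1.25, 5.87 and 7.45 CPM at those of day 16. The centers were at 70.5, 28.8 and 108 CPM on day 15 and at 51.7, 1360 and 55.7 CPM on day 16. Every center exceeded every edge, and the center of animal 5 was far above the others, none of which passed 108 CPM. The log2 fold change was -5.01 (edgeR adjusted p = 0.00212), and it ranged from -5.52 to -4.37 when each wound was left out in turn. IL1B, the inflammatory cytokine, was low everywhere, at 0.0584 to 0.916 CPM at the edge and at 1.13 to 39.3 CPM in the center. It differed by -2.26 ± 1.66 on the log2(CPM + 1) scale (SD, n = 6 wounds), lower at the edge in 6 of 6 wounds, with a two-sided exact sign-flip permutation p of 0.0312. At levels this low the size depends on the scale, and the mean was -1.64 in FPKM, -2.81 with a pseudocount of 0.5 and -4.16 on log2(1 + counts), with the same p. In this list 8 of 18 genes were lower and 2 higher, with a median log2 fold change of -1.03, and the numbers were 5 and 0 without animal 3 as well as without both animals 3 and 5. The lower genes also held IL6 and PTGS2, the inducible prostaglandin synthase. The higher pair, IL36G and IL36RN, belongs to the IL-1 family members of epidermis. Each lost its call without animal 3, 4, 5 or 6 (edgeR adjusted p up to 0.0945 and 0.0962).

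Lymphocyte genes followed the macrophages. CD3E, a subunit of the T cell receptor complex, was at 2.43 to 16.1 CPM at the edge and at 6.74 to 39.2 CPM in the center. The groups overlapped because animals differed, with animal 1 highest and animal 4 lowest in both locations, but within wounds the edge was lower in 6 of 6, with a difference of -1.23 ± 0.224 (SD) on the log2(CPM + 1) scale (log2 fold change -1.40, edgeR adjusted p = 0.000489). IL7R, a receptor of naive and memory T cells and of innate lymphocytes, was lower by -2.25 (adjusted p = 0.000888). Of 16 T and NK lymphocyte genes tested, 13 were lower and 0 higher, with a median log2 fold change of -1.40.

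The B and plasma cell list gave 2 of 12 lower and 0 higher, with a median log2 fold change of -0.25. Among the lower genes was BLK, a kinase of the B cell receptor, at a log2 fold change of -1.77. JCHAIN, the joining chain of secreted antibodies, reached 581 CPM in the center of animal 1 against 10.1 to 24.3 CPM in the other centers, and was not called (log2 fold change 1.34, edgeR adjusted p = 0.141). Of 10 genes of dendritic, Langerhans and mast cells, 62.5% of the symbols sought, 5 were lower and 3 higher. The higher genes were CD207, the langerin of epidermal Langerhans cells, and the mast cell genes MS4A2 and HDC, at log2 fold changes of 1.89, 0.54 and 3.90. The lower genes, which include FLT3, CCL17 and CCL22, are those of other dendritic cells, apart from KIT.

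Complement genes were mixed, with 9 lower and 4 higher of 19 and a median log2 fold change of -0.29. C3, the central component, was at 40.2 to 125 CPM at the edge and at 280 to 661 CPM in the center, without overlap (log2 fold change -2.64, edgeR adjusted p = 0.000427), and another gene in the table carries its symbol. C4A, C5, C7 and CFB were higher, and the number higher was 2 without animal 3 and 0 without both animals 3 and 5. Antigen presentation and interferon response genes had 7 of 19 lower and 1 higher, 42.1% called, near the 44.4% of all genes tested. The higher gene, RSAD2, at a log2 fold change of 1.51, lost its call without animal 3, 4 or 5 and without both animals 3 and 5. The number lower was 3 without animal 2 or 3 and 4 without animal 1.

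Cell division genes were lower at the edge. PLK1, a mitotic kinase, was at 11.3 to 14.7 CPM at the edge and at 21.1 to 35.5 CPM in the center, without overlap, and day 0 skin ran from 7.04 to 11.3 CPM (log2 fold change -1.20, edgeR adjusted p = 0.000433). MKI67, the proliferation antigen, had medians of 47.6 and 74.6 CPM (log2 fold change -0.72, adjusted p = 0.00224). Of 25 genes tested, 22 were lower and 0 higher, with a median log2 fold change of -0.71, and 19 were lower without the wounds of animals 3 and 5. PCNA, TYMS and NUSAP1 were not called.

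Fat, muscle and nerve are tissues of intact skin and of the layer beneath it. ADIPOQ, adiponectin of adipocytes, was higher at the edge in 6 of 6 wounds, with 18.4 to 3250 CPM at the edge and 2.46 to 571 CPM in the center (log2 fold change 2.71, edgeR adjusted p = 0.0239). The call was lost without animal 3, 4 or 5 (adjusted p up to 0.0666). Both samples of animal 5 were the lowest of their location, and the edge of animal 3, which also held muscle RNA, was the highest. Of 11 adipocyte genes, 8 were higher and 0 lower, with a median log2 fold change of 2.57, and the number was 5 without animal 3 or 4 and without both animals 3 and 5. Of 10 skeletal muscle genes, 1 was higher, the myosin heavy chain MYH2, and it was not called without animal 3, where its edge value was 182 CPM. Without animal 5 the number higher was 3. Schwann cell and nerve genes had 5 of 10 higher and 0 lower, 50% called against 44.4% of all genes tested, with a median log2 fold change of 1.12. The number higher was 3 without animal 2, 3 or 6 and 1 without both animals 3 and 5. Of the erythrocyte genes, 5 were tested, 0 were called, 0 had an unadjusted p under 0.05, and DESeq2 called 0, with a median log2 fold change of 0.17.

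Positional genes split. Of 27 tested HOX and T-box genes, 9 were higher and 8 lower, with a median log2 fold change of -0.03. TBX2, a T-box repressor of mesenchyme and vessels, had 19.1 to 27.9 CPM at the edge and 44.8 to 115 CPM in the center, without overlap (log2 fold change -1.59, edgeR adjusted p = 0.0011). The number lower was 3 without animal 3 and 5 without animal 2 or 6, and without both animals 3 and 5 it was 2 in each direction. Hypoxia and glycolysis genes were split as well, with 4 higher and 6 lower of 16 and a median log2 fold change of -0.13. LDHA, which makes lactate, and SLC16A3, which exports it, were lower by -0.93 and -1.89 (adjusted p = 0.0019 and 0.00108), while PDK1, which keeps pyruvate out of mitochondria, was higher by 1.47 (adjusted p = 0.000421). Without animal 5 or 6, and without both animals 3 and 5, the number higher was 2.

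Some genes with large differences lie outside these lists. ARG1, arginase of alternatively activated macrophages and of wound keratinocytes, ranged from 0.634 to 52.3 CPM at the edge and from 82.7 to 259 CPM in the center, and its highest edge was that of animal 4 (log2 fold change -5.11, edgeR adjusted p = 0.00553). SAA2, a serum amyloid A, was at 0.992 to 9.66 CPM at the edge and at 18.2 to 747 CPM in the center (log2 fold change -4.94, adjusted p = 0.00271). CORIN, a protease best known from the heart, was lower by -3.65 (adjusted p = 0.000968). TDO2, a tryptophan-degrading enzyme, was higher by 8.57 (adjusted p = 4.42e-05), with 0.162 to 92.3 CPM at the edge and at most 0.191 CPM in the center.

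Whether the difference of edge and center depended on the day was tested for all genes. Between day 16 and day 15, 0 of 15701 genes (0%) were called in edgeR, 825 had an unadjusted p under 0.05, and DESeq2 called 15. Without the filter on low counts edgeR called 1 gene, MYLPF, a myosin light chain of skeletal muscle that reached 127 CPM in the edge of animal 3. Against day 13, with 6 wounds of animals 4, 5 and 6, 0 of 16204 genes (0%) were called, 2539 had an unadjusted p under 0.05 and DESeq2 called 565. KRT10 within wounds was 7.10 ± 0.923 on day 13 and 6.69 ± 2.58 on days 15 and 16 (SD, n = 6 wounds each, log2(CPM + 1) scale), with an edgeR adjusted p of 0.875 for the change. TCHH differed by -0.01 ± 0.0338 on day 13 and by 4.01 ± 3.11 on days 15 and 16, which was not called (edgeR adjusted p = 0.162). On day 19, in animals 4, 5 and 6, it differed by 0, -0.078 and 0. On day 21, in animals 1, 2 and 3, it differed by 6.5, 7.4 and 4.9. On day 16, in the same animals 4, 5 and 6 as on days 13 and 19, TCHH differed by 2.5, 3.7 and 2.1. These days hold other wounds of those animals, so day cannot be told apart from wound. Day 21 holds only animals 1, 2 and 3, so its distance from day 19 cannot be told apart from animal. With day 16 alone against day 13, edgeR called 0 of 15846 genes.

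Against days 19 and 21, on which each of the 6 animals had 1 wound, 724 of 16355 genes (4.43%) had a different contrast. DESeq2 called 2389. Of the 724, 271 were higher (1.66% of those tested) and 453 lower (2.77%) on days 15 and 16, and with the library size alone as scaling the numbers were 263 and 282. This count rested on few wounds. It was 8 without the days 15 and 16 wound of animal 3, 40 without that of animal 5, 127 without that of animal 6 and 370 without that of animal 2, but 1120 without that of animal 1. Of the wounds of days 19 and 21, leaving out that of animal 3 gave 0 (3360 with an unadjusted p under 0.05), animal 4 gave 7, animal 6 gave 156 and animal 5 gave 1198. Values of single genes are therefore a description of these 6 and 6 wounds.

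Among the lists, proteases had 7 of 21 genes with a lower contrast on days 15 and 16 than on days 19 and 21, and collagen processing had 7 of 18. MMP1 differed by -6.51 ± 1.2 within wounds on days 15 and 16, by -3.46 ± 2.62 on day 13 and by -1.88 ± 2.24 on days 19 and 21 (log2(CPM + 1), SD, n = 6 each), with an edgeR adjusted p of 0.0324 against the later days. FN1 differed by -2.21 ± 0.885, by -1.55 ± 0.52 and by -0.59 ± 0.548 in the same order (adjusted p = 0.0413 against the later days). For KRT10 the values were 6.69 ± 2.58 on days 15 and 16 and 1.36 ± 2.78 on days 19 and 21 (adjusted p = 0.0507), and for its partner KRT1 the later mean was 1.08 ± 2.76 (adjusted p = 0.0435). The later means of both keratins rested on animal 5, with 6.85 for KRT10 and 6.56 for KRT1, and were 0.26 and -0.02 without it. CXCL8 differed by -4.58 ± 1.78 on days 15 and 16 and by -2.23 ± 2.52 on days 19 and 21, which was not called (adjusted p = 0.178). Without animal 2 the later means of MMP1 and CXCL8 were -1.15 and -1.34, and without animal 1 that of FN1 was -0.37. The same animals contribute wounds to these periods, so the periods are not independent.

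Of 20 macrophage genes, 5 had a lower contrast than on days 19 and 21, namely CD163, CD14, CSF1R, SPI1 and FCER1G, and of 24 matrix genes 5 did, namely COL5A2, COL6A1, COL6A2, FN1 and BGN. Of 19 suprabasal genes, 3 had a higher contrast, namely KRT1, KRT2 and KRT77. PREX1, an exchange factor of leukocytes and vessels, and EMILIN2, a matrix glycoprotein, were among the genes with the lowest p, each lower at the edge by 1.36 and 1.48 (log2(CPM + 1)) on days 15 and 16 and by 0.20 and 0.17 on days 19 and 21 (edgeR adjusted p = 0.012 for both). Those later values were -0.10 for PREX1 without animal 2 and -0.11 for EMILIN2 without animal 5.

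**Figure D5:**
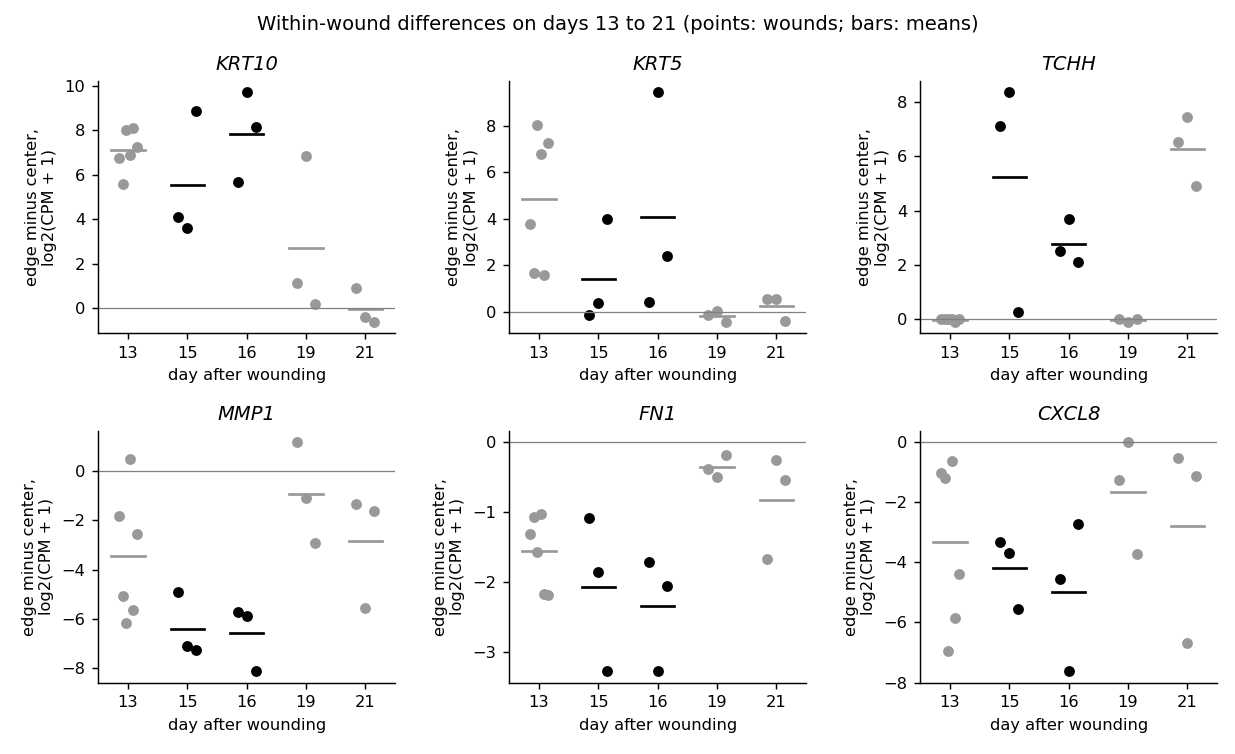
Each point is the edge minus center difference of a wound on the log2(CPM + 1) scale, by day after wounding on the x axis, with black points for days 15 and 16, grey points for days 13, 19 and 21, and bars for the mean of each day. KRT10 differs by 6.69 on average on days 15 and 16 and by 1.36 on days 19 and 21, and MMP1 by -6.51 and by -1.88. TCHH differs by about 0 on days 13 and 19 and by 2.1 to 3.7 on day 16 (animals 4, 5 and 6). It differs by 4.9 to 7.4 on day 21 (animals 1, 2 and 3).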

How the data were processed

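Edge and center biopsies were compared on gene counts from poly(A)-selected, paired-end RNA sequencing. The deposited counts are whole reads per gene without normalization, which the sequencing provider, Novogene, made for the authors. The aligner, annotation and genome build are not given in the sources used here, and genes lie on contigs, so no coordinates or sequences are printed. Deposited FPKM values, scaled by gene length and library size, served as 1 alternative for KRT10 and IL1B. Of 30461 genes, 12300 carried a symbol in the name column, 9387 were named from the protein match beside it and 8774 had none. No strand setting is given, so reads of overlapping genes cannot be told apart. Genes were tested with the quasi-likelihood test of edgeR 4.0.16 (R 4.3.3), TMM factors, filterByExpr (minimum count 10, minimum total 15), wound and location as terms and an adjusted p threshold of 0.05. Differences between days or periods were interaction terms with the wound kept as a block. CPM used the library totals of the table. KRT10 and IL1B were also tested with an exact sign-flip permutation over wounds (Python 3.11.15, scipy 1.17.1). Figures were drawn with matplotlib 3.10.9.

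Wound and animal come from the labels. The samples were treated as paired because the labels give each edge a center of the same wound. The deviations of edge and center from their day means correlated between 0.111 and 0.453 in the 6 wounds. On days 15 and 16, and on days 19 and 21, each wound is 1 animal. With the wound as a block, p-values measure how the edge minus center difference varied between animals, and they cannot separate day from animal. Day 13 has 2 wounds from each of 3 animals, so its p-values mix the spread within and between animals. Counts, with no molecular identifiers, give intervals and floors for counting error only. The steps were tested on simulated data.

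The genes, lists and tests were chosen with earlier results of these data known. Genes were named if they were among the 12 largest log2 fold changes in a direction (called, same direction in 6 wounds, mean of at least 5 CPM), among 3 defining markers or the 4 lowest adjusted p of a list, among the 5 lowest p in a direction of a difference test, or among the 5 largest shares of counts. KRT10 and IL1B were always named. Some genes that the rule names are not reported here. Other genes were added after their values were seen, mostly where few members of a list were, or were not, called. Alternatives were no block, other scalings, DESeq2 1.42.0, other filters, each day alone and each wound left out.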

Additional observations from a re-analysis of the deposited data

Results flagged for a closer look

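The edge minus center difference of 724 genes was not the same on days 15 and 16 as on days 19 and 21 (test of the difference, edgeR). The samples of each location were also searched for a sample far from the other 5, by Dixon's ratio of the gap to the range. Of 346 groups, 21 passed the critical value at the 95% level, where chance alone gives about 1 in 20, here 17.3.

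In animal 3 the edge stood apart in the skeletal muscle list (ratio 0.931), in ACTA1 (0.871) and in MYLPF (0.943), all high. In animal 5 the center was high in CXCL8 (0.66), CXCL2 (0.641) and CXCR2 (0.727), and the edge was high in PROX1 (0.63). In animal 1 the center was high in the B and plasma cell list (0.694), JCHAIN (0.792) and TYMS (0.811) and low in MMP1 (0.648). In animal 4 the edge was low in the macrophage list (0.638) and PDK1 (0.807) and high in the cholesterol synthesis list (0.73), and its center was high in MMP7 (0.872) and low in MS4A2 (0.677) and FLT3 (0.658). In animal 2 the edge was high in ACTA2 (0.647), and the center was high in PIP (0.907) and low in PCNA (0.744). In animal 6 the edge was high in CDH5 (0.696).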

How the results depend on the processing

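The count of 6977 genes was 6206 with no replicate block and day as a term, and 5870 of the paired calls were called in the same direction there. It was 8352 in DESeq2, 2094 on day 15 alone, 2177 on day 16 alone, 2973 with a fold of at least 2 and 4130 without animals 3 and 5. With 1 wound left out it ran from 5112 (without animal 3) to 6385. No paired call had the opposite direction and a call in any of these settings. Between days 15 and 16, DESeq2 called 15 genes and edgeR without a filter 1. Against day 13, DESeq2 called 565. Against days 19 and 21, DESeq2 called 2389, and leaving out 1 wound gave 8 to 1120 for days 15 and 16 and 0 to 1198 for days 19 and 21. KRT10 ran from 6.09 to 7.31 and IL1B from -2.58 to -1.66 with 1 wound left out, each with an exact sign-flip permutation p of 0.0625, the smallest that 5 wounds allow.

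Of 2234 values of named genes under alternatives, 1984 kept direction and side of the threshold, 195 lost the call, 26 gained one and 29 turned direction, none of them from a call made with all 6 wounds. On day 16 alone those that turned were ACTA1 (-0.73), TGM3 (-0.036), LAMB3 (0.37), APOE (-0.28), S100A8 (0.11), S100A12 (0.29) and TYMS (0.22), and on day 15 alone the ITGA3 log2 fold change (-0.032), that of CDH3 (-0.40) and the KRT6C log2 fold change (-2.28). With day as a term and no replicate block ITGA3 was at -0.23, CDH3 at -0.33 and KRT6C at -0.79, and with location alone ITGA3 was at -0.23, CDH3 at -0.28 and JCHAIN at -0.25. Without animals 3 and 5 ITGA3 was at -0.54, CDH3 at -0.60 and KRT6C at -1.14, the first and second called. With 1 wound left out ACTA1 ran from -0.16 to 6.78, ITGA3 from -0.20 to 0.38, CDH3 from -0.36 to 0.48, KRT6C from -0.74 to 0.90, APOE from -0.073 to 0.17 and TYMS from -0.20 to 0.048 (log2 fold changes). The causes were not tested.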

Other observations

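After the values were seen, 4 more gene groups were put together, and they are given as values with no test of the group. Genes of osteoclasts and of multinucleated giant cells were lower at the edge, 10 of 12 against 1 higher (0 without animals 3 and 5), with a median log2 fold change of -2.09. DCSTAMP, a receptor needed for the fusion of macrophages, was at 0.0584 to 1.62 CPM at the edge, at 4.45 to 17.8 CPM in the center and at 0 in all day 0 samples (log2 fold change -3.50, edgeR adjusted p = 0.00221). ACP5, the tartrate-resistant phosphatase, ran from 34.1 to 90.5 CPM at the edge and from 102 to 374 CPM in the center (log2 fold change -1.82, adjusted p = 0.00267). SIGLEC15 and ATP6V0D2, a receptor and a proton pump subunit of such cells, were lower by -3.19 and -3.60 (adjusted p = 0.00355 and 0.00873). No edge of these 4 genes reached the lowest center.

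Type 17 cytokine and receptor genes had 8 of 12 lower and 1 higher, with a median log2 fold change of -2.07. IL17F was at no more than 0.427 CPM at the edge and at 0.318 to 33.9 CPM in the center, highest in animal 6 (log2 fold change -5.66, edgeR adjusted p = 0.00211). Fatty acid and triglyceride synthesis had 10 of 15 higher and 2 lower, with a median of 0.82. DGAT2, which makes triglycerides, was at 215 to 1120 CPM at the edge and 6.88 to 125 CPM in the center (log2 fold change 3.56, adjusted p = 0.00111). FASN, fatty acid synthase, and SCD, a desaturase, were higher by 1.87 and 2.79 (adjusted p = 0.00229 and 0.000747). Of 14 genes grouped as apocrine and sweat gland products, 14 were higher, with a median log2 fold change of 6.94. This group was gathered with values known and holds PIP and TDO2, named above for their large differences. Its count is therefore a description of the genes chosen and no test of gland tissue.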
